A study of Mus musculus with 12 samples.

Results

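The Hox genes encode homeodomain transcription factors and lie in 4 clusters, HoxA, HoxB, HoxC and HoxD, in which each gene carries the number of its paralog group. All 39 Hox genes (11 in HoxA, 10 in HoxB, 9 in HoxC and 9 in HoxD) were found among the 23575 genes with RNA-seq counts and were kept. CpG sites were taken from each cluster, from its first to its last Hox gene with 5 kb added on either side, where reads covered the site at least 10 times in all 6 bisulfite libraries. This left 2177 of 724670 shared sites, of which 625 lay in HoxA, 577 in HoxB, 438 in HoxC and 537 in HoxD. Together they sat on 1943 of the 12643 CpGs of the 4 regions. On mm10 (GRCm38), the genes of HoxA span chr6:52155367-52260880, those of HoxB chr11:96194316-96368253, those of HoxC chr15:102921131-103036852 and those of HoxD chr2:74668225-74765142.

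The cells were articular chondrocytes, the matrix-producing cells of joint cartilage, taken from C57BL/6J mouse pups aged 5 to 6 days, at the head of the femur and the plateau of the tibia. They were expanded as a monolayer in serum and then spun into pellets, which were kept in a medium with ascorbic acid and an insulin, transferrin and selenium supplement. Week 1 pellets were taken on day 7 and Week 3 pellets on day 21, with no other treatment in either group. RNA-seq and enhanced reduced representation bisulfite sequencing (ERRBS, which reads methylation mostly in CpG-rich DNA) were each done on 3 pellet samples a week. The labels do not say whether replicates came from separate animals or cultures, so p-values measure only the spread between these samples.

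In a developing limb, genes at the high-numbered end of HoxA and HoxD are best known for giving the segments their identity: paralog group 10 for the upper segment that holds the femur, group 11 for the segment that holds the tibia, and group 13 for the foot. Polycomb complexes hold unused Hox genes silent, mostly with no DNA methylation, and Trithorax-group proteins keep used ones on. The CpG-rich starts of most genes are free of methylation. Hox proteins bind DNA together with TALE homeodomain cofactors such as the Meis family.

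The sequences that carry the main contrast of the methylation data are stretches of 150 bases around Hox starts, taken from the GRCm38 genome. Each is the stretch within 1 kb of the start of the counted transcript that held the most measured CpGs outside untranslated exons, printed 5′ to 3′ on the strand of the gene, with the measured CpGs in capitals. The first group comes from the 5 start windows with the highest methylation. A stretch is called coding where any of its bases is coding sequence, so it can run into an intron. The Hoxa5 stretch (chr6:52204051-52204200, reverse strand) lay 387 to 536 bases after the start and was coding. The Hoxa2 stretch (chr6:52164236-52164385, reverse strand) was also coding. The Hoxa6 (chr6:52208798-52208947, reverse strand) and Hoxd4 (chr2:74721814-74721963, forward strand) stretches lay before the start, and the Hoxc4 stretch (chr15:103034868-103035017, forward strand) was coding.
Hoxa5: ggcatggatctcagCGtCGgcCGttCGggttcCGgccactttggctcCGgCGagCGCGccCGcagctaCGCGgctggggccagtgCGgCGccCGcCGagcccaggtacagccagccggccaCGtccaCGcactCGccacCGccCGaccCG
Hoxa2: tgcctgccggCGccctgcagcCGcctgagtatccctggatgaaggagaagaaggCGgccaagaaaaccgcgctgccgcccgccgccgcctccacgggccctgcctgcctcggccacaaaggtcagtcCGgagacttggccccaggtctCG
Hoxd4: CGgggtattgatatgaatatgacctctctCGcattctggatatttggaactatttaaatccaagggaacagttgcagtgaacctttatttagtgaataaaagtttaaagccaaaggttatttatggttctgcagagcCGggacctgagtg
Hoxc4: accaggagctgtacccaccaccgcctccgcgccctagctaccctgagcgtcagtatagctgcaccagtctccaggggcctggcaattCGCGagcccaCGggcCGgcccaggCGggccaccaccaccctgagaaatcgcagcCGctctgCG
Hoxa6: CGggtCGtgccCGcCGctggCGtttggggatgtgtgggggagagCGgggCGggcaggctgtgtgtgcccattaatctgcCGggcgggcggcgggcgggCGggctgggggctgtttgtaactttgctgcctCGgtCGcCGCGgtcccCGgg
The second group shows CpG-rich starts with almost no methylation: Hoxa4, the neighbour of Hoxa5 (chr6:52191412-52191561, reverse strand), Hoxa10, the Hox gene with the highest level (chr6:52234133-52234282, reverse strand), Hoxd1, which rose most between the weeks (chr2:74763346-74763495, forward strand), and Hoxb7, a silent gene (chr11:96287018-96287167, forward strand). All 4 were coding, in whole or in part. Hoxb7 and Hoxa4 were chosen after their values were seen.
Hoxa4: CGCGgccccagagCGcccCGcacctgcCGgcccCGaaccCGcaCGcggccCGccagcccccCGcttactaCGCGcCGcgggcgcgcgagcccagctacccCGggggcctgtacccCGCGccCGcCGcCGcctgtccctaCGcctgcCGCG
Hoxa10: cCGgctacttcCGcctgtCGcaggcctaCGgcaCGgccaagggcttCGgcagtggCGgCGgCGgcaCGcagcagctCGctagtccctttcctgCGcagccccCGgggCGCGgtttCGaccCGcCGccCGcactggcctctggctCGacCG
Hoxd1: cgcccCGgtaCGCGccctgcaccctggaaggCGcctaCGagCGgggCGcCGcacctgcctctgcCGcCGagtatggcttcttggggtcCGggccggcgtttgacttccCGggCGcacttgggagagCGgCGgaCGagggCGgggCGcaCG
Hoxb7: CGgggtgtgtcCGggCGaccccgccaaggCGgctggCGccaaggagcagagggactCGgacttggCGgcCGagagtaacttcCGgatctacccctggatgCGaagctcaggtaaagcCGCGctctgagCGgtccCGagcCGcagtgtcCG
Averaged over the measured sites, the Hoxa5 stretch was 47.8% methylated (41.0% to 56.8% over the 6 libraries, with 26 sites on 22 measured CpGs). The Hoxa4 stretch, with 25 sites on 22 measured CpGs, was 1.6% methylated (0.308% to 2.67%). No library of the Hoxa4 stretch came near any of the Hoxa5 stretch, although both genes were expressed. The Hoxa2, Hoxd4, Hoxc4 and Hoxa6 stretches stood at 49.3%, 47.0%, 41.6% and 16.9%, on 5, 3, 7 and 14 measured CpGs. The whole Hoxa6 window stood at 37.9%, so its stretch was a less methylated part of it. Those of Hoxa10, Hoxd1 and Hoxb7 stood at 1.64%, 1.35% and 3.03%, on 21, 19 and 16.

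RNA-seq totals per library, summed over the transcript with the most counts of each gene, ran from 14361717 to 15893390 in Week 1 and from 15988688 to 19774665 in Week 3. Markers of chondrocytes were abundant, with summed levels of 12700 to 25200 CPM (counts per 1000000 counts of the library, after TMM scaling) in Week 1 and 26900 to 29500 in Week 3. Of these 7 markers, 3 were called higher in Week 3 (Acan, Hapln1 and Comp) and 0 lower, against 19.7% and 17.8% of all genes tested. Col2a1 (log2 change 0.09), Col9a1 (-0.40) and Matn1 (-0.20) did not pass. The 4 fibroblast markers summed to 1410 to 2340 and 6870 to 7510 CPM, with 2 of 4 higher in Week 3 (Col1a1 and Thy1). Most of this was Col1a1 (means of 1550 and 6840 CPM), while Pdgfra (log2 change 0.24) and Dpt (-0.88) did not pass. The 4 macrophage markers summed to 20.5 to 63.4 and 6.95 to 42 CPM. Of them Ptprc was called lower in Week 3, and Csf1r (log2 change -0.05), Adgre1 (-0.66) and Lyz2 (-1.13) did not pass. Muscle markers summed to 50.1 to 69.3 and 20.7 to 22.8 CPM. Most of this was Ttn (means of 60.2 and 20.3 CPM, called lower), while Des, at 0.902 and 1.55 CPM, did not pass. The 3 endothelial markers summed to at most 0.987 CPM. Myod1, which defines muscle cells, had 0 counts in every library. The 4 adipocyte markers summed to 65 to 249 and 58.8 to 192 CPM, with Adipoq at 24 and 20.7 CPM in replicate 2 of Week 1 and Week 3 and at 2.42 to 8.57 in the other 4 libraries, and the 3 neural markers to 1.62 to 2.52 CPM. The part of these shifts in the Hox values was not tested, and in bulk pellets fewer cells of a type and less RNA per cell cannot be told apart. Median ERRBS coverage at the Hox sites was 59, 66 and 18 reads in Week 1 and 34, 20 and 29 in Week 3. Week 1 replicate 3 and Week 3 replicate 2, with the lowest coverage, stood apart: their methylation was over 10 percentage points from the mean of the other libraries in 23 and 37 of 174 Hox tiles, against 4 to 8 in the other libraries. Tiles are windows of 1000 bases with at least 3 shared sites.

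Expression of the clusters was uneven. Levels are given as CPM divided by the length of the counted transcript in kb, which allows genes to be compared. A gene with a mean over the 6 libraries of at least 1 CPM per kb is called active here, one under 0.1 silent, and one between them low. By this rule 18 Hox genes were active (9 in HoxA, 7 in HoxC and 2 in HoxD), 12 were low and 9 were silent. No HoxB gene was active: 6 were silent and 4 low. HoxA held 49.9% to 56.1% of the summed Hox level per library, HoxC 32.6% to 38.1%, HoxD 8.33% to 10.8% and HoxB 0.839% to 1.53%. The summed level of all 39 genes was 84.3 to 90.4 CPM per kb in Week 1 and 88.5 to 94.3 in Week 3.

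Within HoxA the 3 genes Hoxa10, Hoxa11 and Hoxa9 stood highest. Hoxa10 was at 14.1, 15.7 and 14.5 CPM per kb in the Week 1 libraries and 18.4, 17.0 and 16.0 in Week 3. It exceeded every other Hox gene in each library. Hoxa11 followed with 10.1, 10.2 and 10.8 in Week 1 and 10.3, 8.58 and 8.80 in Week 3, and Hoxa9 with 9.25, 8.90 and 9.76 and then 8.23, 7.57 and 7.20. Their ranges overlap. Of the Hoxa11 transcript, 24.8% is overlapped on the opposite strand by the antisense RNA Hoxa11os, and the labels' protocol has no step that marks strand, so reads there cannot be told apart. Hoxa13, at the end of the cluster, was low, with 0.310 to 0.818 CPM per kb. The remaining active HoxA genes, which in the embryo act along the trunk and hindbrain, were lower. Hoxa5 was at 3.03, 2.63 and 3.85 CPM per kb in Week 1 and 3.21, 2.54 and 3.87 in Week 3. Hoxa3 was at 2.73, 1.8 and 3.13 and then 2.6, 2.13 and 2.64, and Hoxa4 at 2.05, 1.89 and 1.72 and then 1.71, 1.4 and 1.75. Hoxa2 was at 1.5, 1.8 and 1.56 and then 1.84, 1.39 and 1.37, Hoxa7 at 1.08, 2.08 and 1.52 and then 1.51, 1.59 and 1.41 and Hoxa6 at 1.58, 1.08 and 1.2 and then 1.22, 0.831 and 0.866. The weeks overlap for all 6 of these genes, and the range of each overlaps with that of its neighbour in the order of levels.

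**Figure D1:**
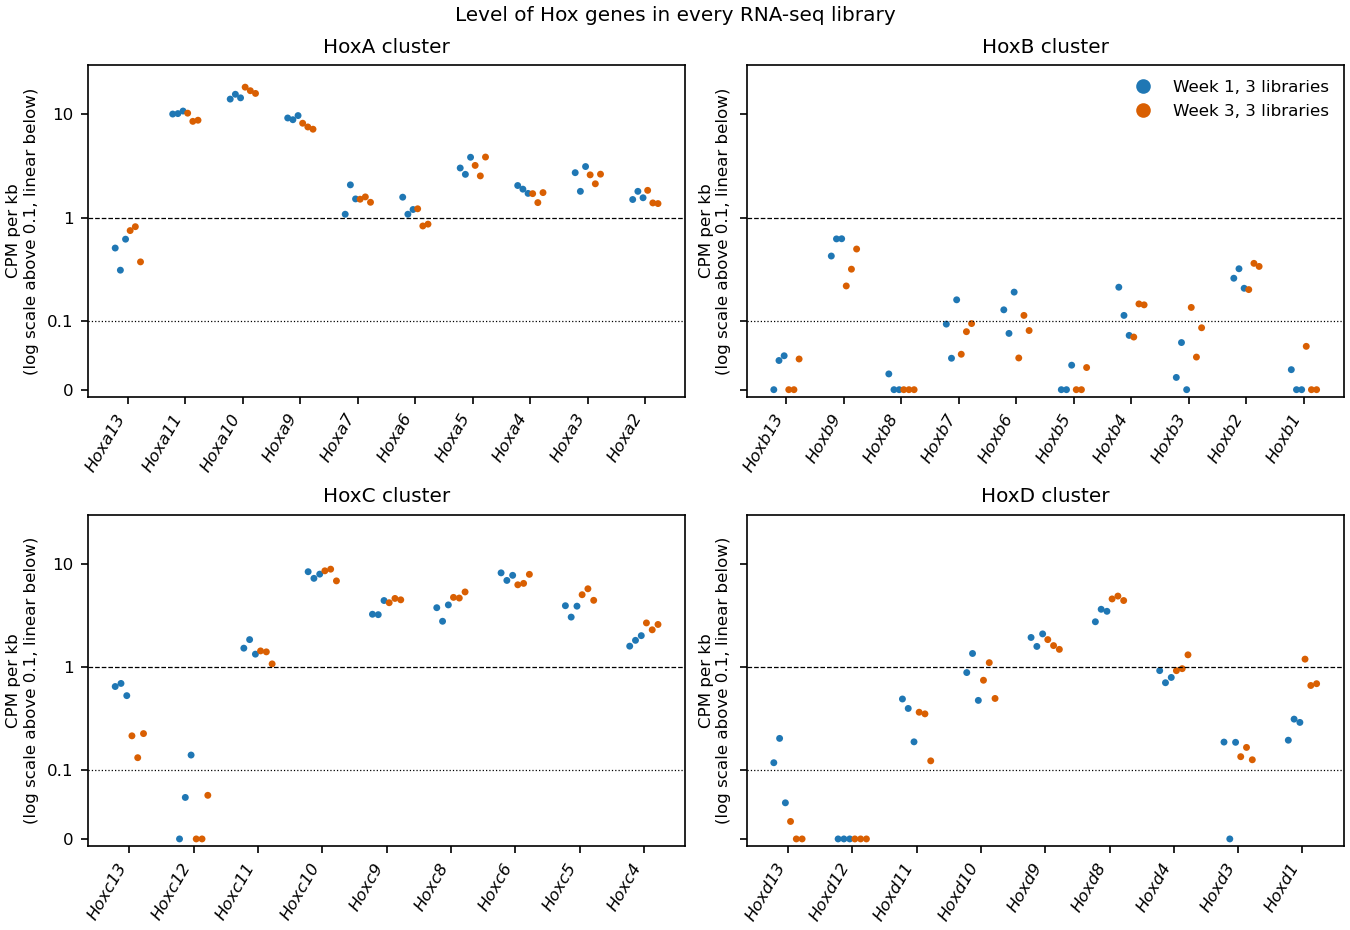
Level of 38 Hox genes in CPM per kb (y axis, logarithmic above 0.1 and linear below) for the 4 clusters, with genes in falling paralog number along the x axis and 1 point per RNA-seq library. The dashed line marks 1 CPM per kb (active) and the dotted line 0.1 (silent). All HoxB genes lie below the dashed line, and Hoxa10 is highest with 14.1 to 18.4.

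In HoxC, Hoxc10 (8.37, 7.22 and 7.93 CPM per kb in Week 1 and 8.54, 8.86 and 6.82 in Week 3) and Hoxc6 (8.16, 6.89 and 7.72, then 6.25, 6.45 and 7.89) stood highest, with ranges that overlap. At the high-numbered end the level was lower: Hoxc11 was at 1.52, 1.84 and 1.33 and then 1.43, 1.4 and 1.07, Hoxc13 at 0.132 to 0.692 and Hoxc12 at 0 to 0.140 CPM per kb. Hoxc9 was at 3.24, 3.21 and 4.4 and then 4.19, 4.61 and 4.47, with overlap of the weeks. In HoxD the 2 active genes lay in the middle, Hoxd8 at 2.74 to 4.86 and Hoxd9 at 1.93, 1.58 and 2.09 and then 1.84, 1.61 and 1.48 CPM per kb. Hoxd10 (0.474 to 1.35 CPM per kb), Hoxd4 (0.703 to 1.31), Hoxd11 (0.123 to 0.489) and Hoxd3 (0.0 to 0.187) were low, and Hoxd13, the gene of the foot segment, was silent (0.0 to 0.203). Hoxd12 had 0 counts in all 6 libraries, which allows a level of up to 0.012 CPM per kb (3 counts over the 6 libraries together; counting error only). In HoxB, Hoxb9 was highest at 0.218 to 0.625 CPM per kb, followed by Hoxb2 at 0.201 to 0.361, Hoxb4 at 0.0765 to 0.212 and Hoxb6 at 0.0461 to 0.19. The silent HoxB genes were Hoxb1, Hoxb3, Hoxb5, Hoxb7, Hoxb8 and Hoxb13, of which Hoxb7 reached 0.16 CPM per kb and Hoxb8 at most 0.0229.

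Between the weeks, a minority of Hox genes changed. With edgeR's quasi-likelihood test and p-values adjusted over 14323 genes, 26 Hox genes could be tested; the other 13 had at most 11 counts in any library. Of the 26, 5 rose from Week 1 to Week 3 (19.2%, against 19.7% of all genes tested) and 2 fell (7.69%, against 17.8%). The median log2 change was -0.06 for the Hox genes and -0.01 for all genes tested. Libraries of the weeks did not overlap for 6 higher and 2 lower Hox genes (25.9% and 25.5% of all genes did so). The share that rose is near the background. With library totals as the only scaling, 1 Hox gene rose and 3 fell, and among all genes tested 1736 rose and 4896 fell, against 2815 and 2546.

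Hoxd1, which lies at the low-numbered end of HoxD and acts in the early embryo and in sensory neurons, changed most among those that rose. It had 0.195, 0.312 and 0.290 CPM per kb in Week 1 and 1.19, 0.661 and 0.688 in Week 3, so that its lowest Week 3 library exceeded its highest Week 1 library. Its log2 change was 1.65 (SE 0.36, edgeR adjusted p = 0.00576), a fold of 3.13, on totals of 24 and 78 counts. Hoxc13, known for its role in hair and nails, fell. It had 0.646, 0.692 and 0.527 CPM per kb in Week 1 and 0.215, 0.132 and 0.226 in Week 3, with no overlap. Its log2 change was -1.71 (SE 0.31, edgeR adjusted p = 0.0022), a level 3.28-fold lower in Week 3. Both calls held under each of the 12 other settings and left-out libraries tried, with adjusted p from 0.00303 to 0.0287 for Hoxd1 and from 0.000942 to 0.0107 for Hoxc13.

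The other calls were smaller. Hoxd8 was at 2.74, 3.62 and 3.46 CPM per kb in Week 1 and 4.56, 4.86 and 4.40 in Week 3 (log2 change 0.49, SE 0.13, edgeR adjusted p = 0.015). Hoxc8 was at 3.75, 2.77 and 3.99 and then 4.72, 4.65 and 5.33 (0.49, SE 0.14, edgeR adjusted p = 0.0227). Hoxc5 was at 3.92, 3.04 and 3.88 and then 5.01, 5.72 and 4.42 (0.49, SE 0.14, edgeR adjusted p = 0.0177). Hoxc4 was at 1.59, 1.81 and 2.01 and then 2.67, 2.29 and 2.58 (0.48, SE 0.16, edgeR adjusted p = 0.0357). In all 4 the libraries of the weeks did not overlap, and 3 of the 4 lie in HoxC; these genes act along the trunk in the embryo. Hoxa9 fell, by 0.28 on the log2 scale (SE 0.08, edgeR adjusted p = 0.0203), also with no overlap. None of these 5 calls held throughout. With library totals as the only scaling, where the median change of all genes tested moved to -0.16, edgeR gave adjusted p of 0.0665 for Hoxd8, 0.0609 for Hoxc8, 0.0527 for Hoxc5 and 0.121 for Hoxc4. Left-out libraries ended the call of Hoxd8 (adjusted p = 0.0551 without Week 1 replicate 1), Hoxc8 (0.08 without Week 3 replicate 3) and Hoxc5 (0.0658 without Week 3 replicate 2). Those of Hoxa9 (0.0529 to 0.0831 on dropping Week 1 replicate 1, Week 1 replicate 3, Week 3 replicate 2 or Week 3 replicate 3) and Hoxc4 (0.0567 to 0.122 on dropping Week 1 replicate 1, Week 1 replicate 2, Week 3 replicate 1 or Week 3 replicate 3) were each lost in 4 of the 6 cases. The DESeq2 test also ended the call of Hoxc4 (adjusted p = 0.118).

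Hoxa10 was higher in every Week 3 library than in any of Week 1, with a log2 change of 0.21 (SE 0.08) that missed the threshold (edgeR adjusted p = 0.0504, and 0.0213 to 0.579 over the alternatives). With the replicate number as a block it passed (edgeR adjusted p = 0.0362), which made 6 Hox genes higher and 2 lower, against 22.8% and 21.3% of all genes in that fit. It also passed without Week 1 replicate 2 (0.0213) and without Week 3 replicate 3 (0.0428). With DESeq2 size factors as the scaling (0.0475) and with counts summed over transcripts (0.0425) it passed too, which makes 5 of 12 alternatives. The 19 genes that did not pass had log2 changes from -0.69 to 0.45. Among them, the active genes Hoxa11 (-0.17, SE 0.09), Hoxc10 (0.04, SE 0.12), Hoxc6 (-0.14, SE 0.12) and Hoxa5 (0.02, SE 0.19) had the values given. Hoxc9 (0.30, SE 0.15) passed only without Week 1 replicate 3 (edgeR adjusted p = 0.0382), and Hoxa11 only with library totals as the scaling (edgeR adjusted p = 0.0179). Hoxd13 was too low for the test, with 5, 9 and 2 counts in Week 1 and 1, 0 and 0 in Week 3, a ratio of 16.6 (exact 95% interval 2.58 to 696, counting error only). With no filter on low counts, edgeR gave it an adjusted p of 0.0165.

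**Figure D2:**
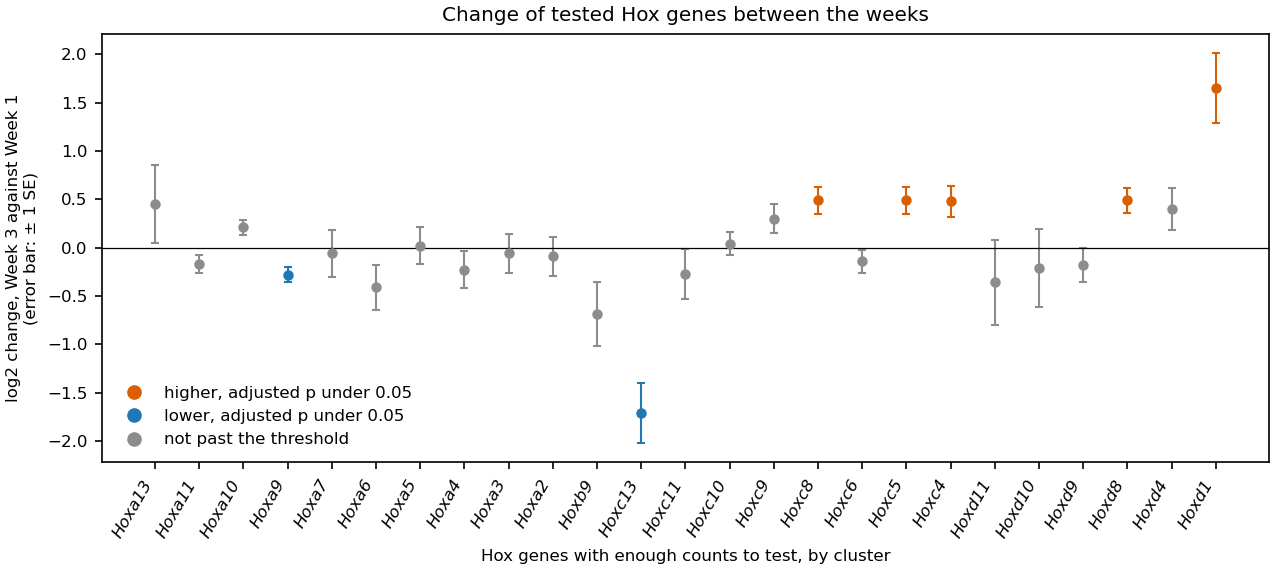
Log2 change from Week 1 to Week 3 (y axis) of 25 Hox genes tested with edgeR, by cluster along the x axis; points are estimates and bars 1 SE either side. Hoxd1 (1.65) and Hoxc13 (-1.71) lie farthest from 0.

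The genes that work with the Hox proteins or act on their clusters were counted from set lists. Their counts stand against 19.7% of all genes tested that rose and 17.8% that fell. Of 11 TALE cofactors, 10 were tested: Meis3 rose (log2 change 0.69, SE 0.17), 2 fell, among them Tgif1 (-0.74, SE 0.11), and 7 did not pass, among them Meis1 (0.09) and Meis2 (0.06). Of 25 Polycomb, Trithorax and other regulators of Hox genes, 22 were tested, of which 1 rose and 5 fell. Eed (-0.31, SE 0.07) and Suz12 (-0.30, SE 0.06), core subunits of Polycomb complex 2, were lower in Week 3. So was Wdr5 (-0.32, SE 0.07), a subunit of the Trithorax-group methyltransferases. Ezh2, a catalytic subunit of Polycomb complex 2, had a log2 change of 0.13 (SE 0.11) and did not pass. Ezh1, at a mean of 82.4 CPM against 18.3 for Ezh2, did not pass either (0, SE 0.07). Calls on Bmi1 (0.25, SE 0.07, edgeR adjusted p = 0.0165) and Rnf2 (-0.22, SE 0.07, edgeR adjusted p = 0.0264), of Polycomb complex 1, and on Kmt2a (-0.25, SE 0.09, edgeR adjusted p = 0.0488) depended on single libraries. Without one library, the adjusted p reached 0.0668 for Bmi1 (Week 1 replicate 1; also lost without Week 1 replicate 3 or Week 3 replicate 3) and 0.106 for Rnf2 (Week 1 replicate 3 or Week 3 replicate 1; also lost without Week 3 replicate 2). For Kmt2a it reached 0.176 (without Week 1 replicate 3), and the call was lost with every library left out but Week 1 replicate 2. With library totals as the only scaling, Bmi1 did not pass (edgeR adjusted p = 0.34), and by the DESeq2 test Rnf2 did not (adjusted p = 0.0513). Kmt2a also failed with DESeq2 size factors as the scaling (edgeR adjusted p = 0.0544) and with counts summed over transcripts (0.0559). The list medians were 0.05 for the cofactors and -0.05 for the regulators.

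Of 12 genes of limb identity and outgrowth, 11 were tested, of which 1 rose and 2 fell (19.7% and 17.8% of all genes tested did so). Tbx2 rose from 1.29 to 3.16 CPM (log2 change 1.29, SE 0.22), and Tbx4, which marks the hindlimb, fell (-0.36, SE 0.08). Lmx1b, which patterns the dorsal limb, was called lower (-0.93, SE 0.32, edgeR adjusted p = 0.0434), but not without Week 1 replicate 2 (0.155), Week 1 replicate 3 (0.094), Week 3 replicate 1 (0.118) or Week 3 replicate 3 (0.127), nor by the DESeq2 test (0.142). The hindlimb markers Pitx1 and Tbx4 summed to 34.4 to 35.2 CPM in Week 1 and 27.9 to 28.4 in Week 3; Tbx5, which marks the forelimb, was at 4.12 to 4.99 and 3.54 to 4.33. Of 12 other genes inside the clusters, mostly noncoding RNAs and microRNA precursors, 5 were tested and 0 passed in either direction. Hoxa11os had a mean of 14.9 CPM in Week 1 and 12.7 in Week 3 (log2 change -0.24, SE 0.10, edgeR adjusted p = 0.0979), and Hotair, a noncoding RNA of HoxC, 0.836 and 0.858 CPM.

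Methylation of the clusters was low compared with the rest of the sites read. The mean over the 2177 sites was 14.41% to 15.16% in the 6 libraries, against 34.41% to 34.99% over the 722493 other sites. Of the Hox sites, 63.7% were under 10% methylated and 9.2% over 50%, against 52.8% and 37.9% elsewhere. HoxA and HoxC carried more methylation than the other clusters: the library means ran from 18.87% to 19.91% in HoxA, 17.44% to 18.64% in HoxC, 12.54% to 14.90% in HoxD and 7.84% to 8.87% in HoxB. No pair of these ranges overlaps. In HoxB only 8 of 577 sites were over 50%, in HoxA 106 of 625.

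The contrast with the rest of the genome depended on how dense the CpGs were. At sites with fewer than 20 CpGs in the surrounding kb, Hox sites averaged 37.0% and others 71.8%; from 20 to 40 CpGs per kb they averaged 26.6% and 56.7%. From 40 to 60 the values were 13.3% and 11%, and at 60 or more 6.2% and 1.8%. So Hox sites in sparse DNA were less methylated than others, and those in the densest DNA more, in each of the 6 libraries. In that densest class HoxA stood at 12.2% (294 sites), HoxB at 1.9% (181 sites), HoxC at 3.2% (127) and HoxD at 3.7% (261). The sites in the class share libraries and neighbouring reads, so no test was made across them.

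**Figure D3:**
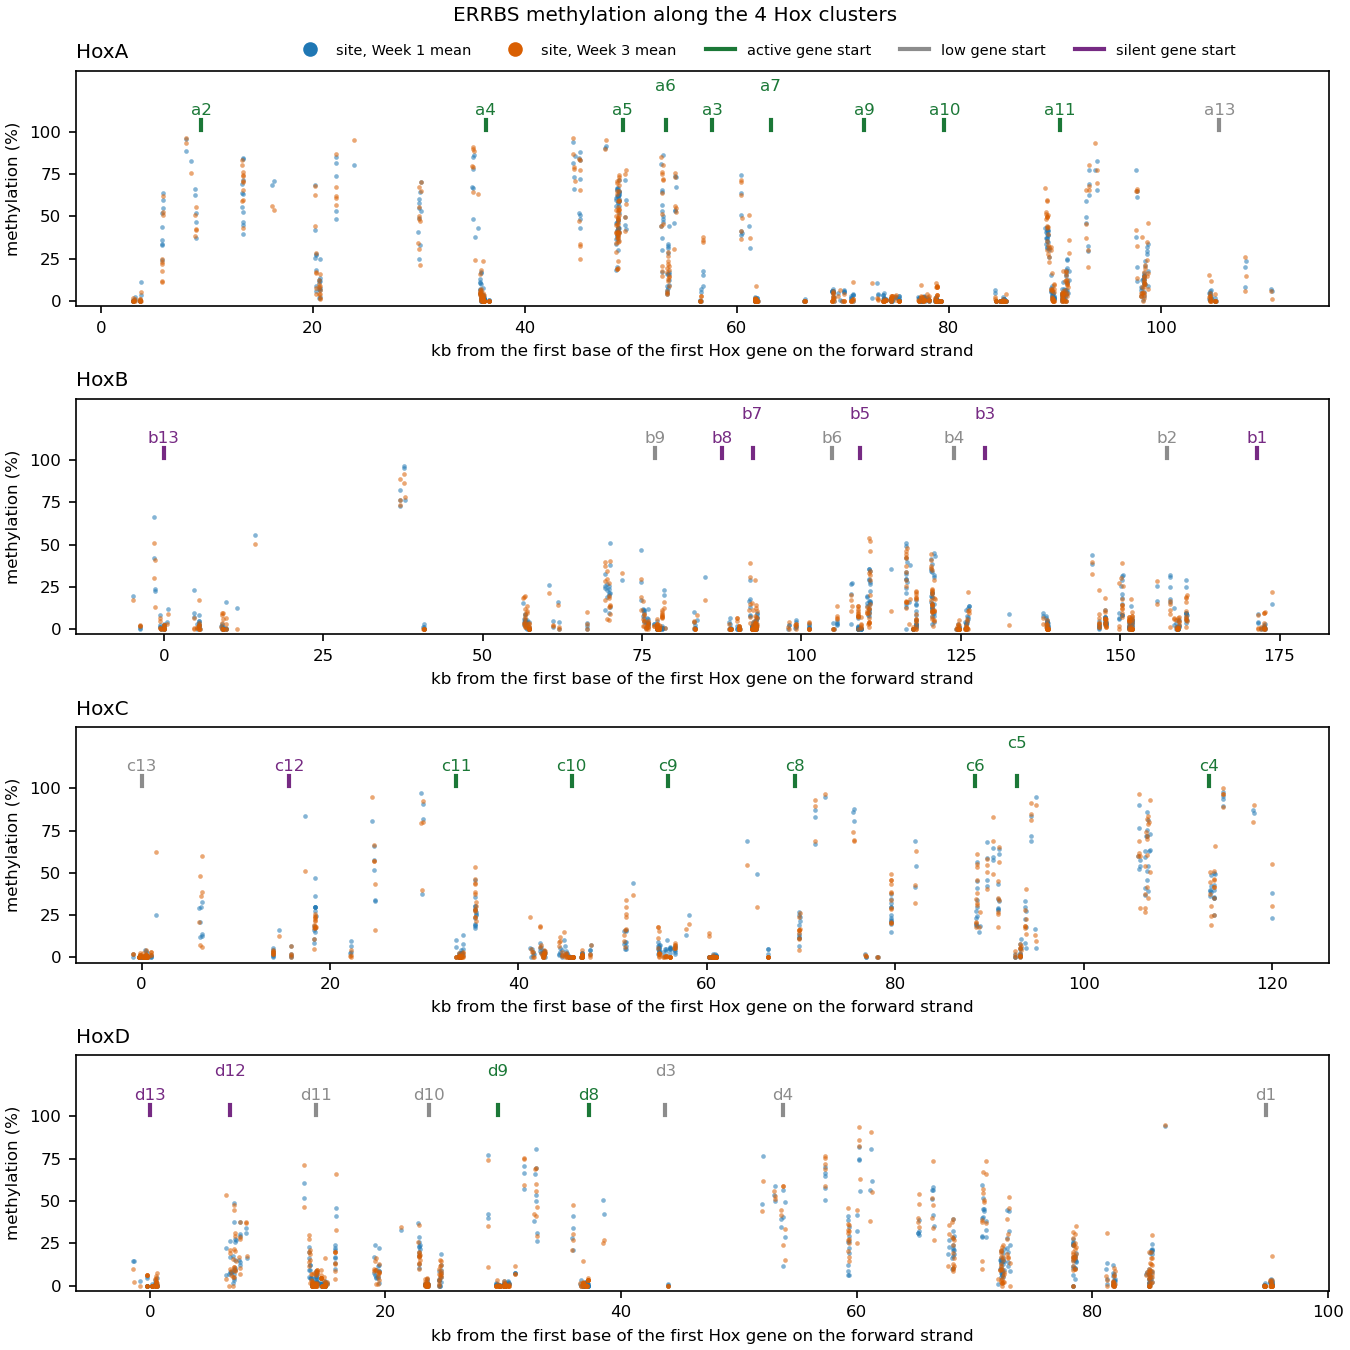
Methylation of each shared site (y axis, percent; Week 1 and Week 3 means of 3 libraries) along the 4 clusters (x axis, kb from the first base of the first Hox gene), with the starts of 38 genes marked above and coloured by expression class. Sites over 50% are frequent in HoxA (106 of 625) and rare in HoxB (8 of 577).

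The most methylated tile of each cluster, by the mean of the 6 libraries, held no start of a counted Hox transcript. In HoxA it was chr6:52163001-52164000, over the last exon of Hoxa2, with 88.9% ± 0.6 in Week 1 and 88.4% ± 1.3 in Week 3 (SD, n = 3 each, 3 sites). In HoxB it was chr11:96232001-96233000, between Hoxb13 and Hoxb9, with 89.5% ± 5.8 and 85.5% ± 12.6 (3 sites). In HoxC it was chr15:102992001-102993000, over the last exon of Hoxc8, with 79.1% ± 5.8 and 83.8% ± 1.7 (3 sites), and in HoxD chr2:74725001-74726000, over an exon of Hoxd4, with 62.0% ± 4.9 and 70.4% ± 20.4 (5 sites). Without Week 3 replicate 2, the most methylated tile was another one in HoxC (chr15:102996001-102997000, between genes, at 82.5% against 80.6% for the tile above) and in HoxD (chr2:74729001-74730000, over an exon of Hoxd4, at 66.1% against 61.0%). Within 1 kb of a Hox start the 938 sites averaged 9.6%, and farther away the 1239 sites averaged 18.7%.

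The starts of Hox genes differed widely in methylation. Start windows reach 1 kb to either side of the start of the counted transcript, and 35 genes had at least 3 shared sites in theirs. Of these, 22 were under 5% methylated, 6 lay between 6.9% (Hoxd10) and 17.6% (Hoxd12), and 7 were over 20%. The 7 were Hoxa2, Hoxa5, Hoxd4, Hoxc4, Hoxa6, Hoxc6 and Hoxa3; 4 lie in HoxA, 2 in HoxC, 1 in HoxD and 0 of 8 in HoxB. All 7 have paralog numbers from 2 to 6. Other windows with these numbers were not over 20%, such as Hoxa4 (3.5%), Hoxb4 (0.6%) and Hoxc5 (8.0%).

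The Hoxa5 window, from which the first sequence comes, was 52.3%, 44.8% and 56.4% methylated in Week 1 and 46.1%, 49.6% and 51.1% in Week 3 (52 sites, 990 to 3636 reads per library). The weeks overlap. The Hoxa6 window was at 40.2%, 41.2% and 33.2% and then 40%, 37.3% and 35.5% (35 sites), again with overlap. Hoxd4 was at 40.4%, 46.6% and 40.4% and then 45%, 43.4% and 42.5% (10 sites), and Hoxc4 at 39.1%, 38.0% and 42.6% and then 50.4%, 27.0% and 42.3% (14 sites). Hoxa2 had 53.8%, 58.0% and 61.6% and then 61.2%, 33.6% and 57.6% (6 sites), its lowest value in the low-coverage Week 3 replicate 2. The Hoxa3 value, at the start of a transcript that begins beyond Hoxa6, rests on 3 sites and on that library: it was 100% there and 1.7% to 20.3% in the other 5. Hoxc6 went from 27.4%, 30.6% and 28.0% to 37.0%, 32.4% and 36.0% (13 sites), with no overlap.

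Of these 7 genes, 6 were active, and Hoxd4 was just under the limit with 0.934 CPM per kb. By contrast, the windows of Hoxa10 (0.0% to 4.3%, 41 sites), Hoxc10 (0.7% to 1.7%, 23 sites), Hoxd8 (0.0% to 3.0%, 33 sites) and Hoxa4 (3.0% to 3.9%, 59 sites) were active and nearly free of methylation. Hoxa11 was at 6.5% to 9.3% (63 sites), and Hoxa9, with a single site, was left out. Silent genes had little methylation at the start as well: 6 of the 7 measured were under 10%, such as Hoxb7 (3.1% to 6.4%, 55 sites) and Hoxd13 (0.5% to 2.3%, 33 sites). Hoxd12, with 0 counts, stood at 13.3% to 21.5% (29 sites). Across the 35 windows, Spearman's rho between level and methylation was 0.22, a description only, since neighbouring genes share libraries, reads and CpG density.

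**Figure D4:**
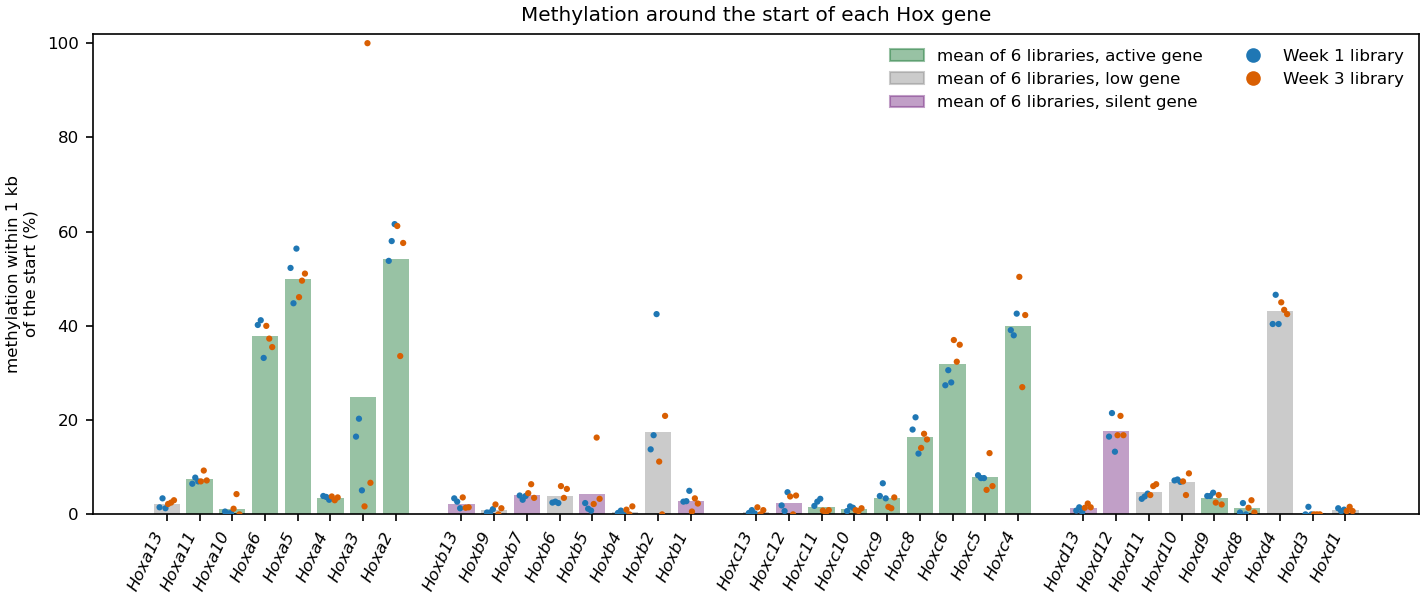
Methylation within 1 kb of the start (y axis, percent) of 34 Hox genes by cluster; bars are means of the 6 libraries, coloured by expression class, and points are single libraries. The Hoxa6 window stands at 37.9% and that of Hoxa4, the next gene but one, at 3.5%; 1 library (Week 3 replicate 2) is at 100% for Hoxa3.

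Other genes showed the opposite order of classes. With the same windows and limits, the start windows of 10007 other active genes averaged 3.2% methylation (3.1% to 3.5% over the libraries) and those of 1624 other silent genes 22% (21.7% to 22.2%). For the Hox genes the averages were 17.9% for 16 active (16.9% to 21.0%), 6.9% for 12 low (5.1% to 8.4%) and 5.0% for 7 silent genes (4.2% to 7.2%). The medians were closer, at 7.7% for active and 2.8% for silent Hox genes and 0.6% and 2.9% for the other genes. Windows over 20% made up 6 of 16 active Hox genes (37.5%) and 346 of 10007 other active genes (3.5%). Without Week 3 replicate 2, on which the Hoxa3 window rests, they made up 5 of 16 (31.2%) and 344 of 10007 (3.4%). Among windows with 40 or more CpGs per kb, active Hox genes averaged 12.7% (10 genes, of which 2 were over 20%) and other active genes 1.4% (6752 genes). Silent genes of this density stood at 6.0% in the Hox clusters (5 genes) and 3.5% elsewhere (676 genes). Low Hox genes of this density, at 2.2% (10 genes), lay below the silent ones. Active Hox genes averaged more than silent ones in each library, over all windows and over the dense ones. The medians of the dense windows went the other way, at 3.5% for active and 4.2% for silent Hox genes. Low and silent Hox genes changed places in Week 3 replicate 2 over all windows (5.1% and 7.2%). Class and cluster cannot be told apart in the Hox averages, since no silent gene lies in HoxA and no active one in HoxB. In HoxD the active windows of Hoxd8 and Hoxd9 stood at 1.3% and 3.5%, and the silent ones of Hoxd12 and Hoxd13 at 17.6% and 1.3%. In HoxC the silent Hoxc12 window stood at 2.5%, and the active ones ran from 1.1% (Hoxc10) to 39.9% (Hoxc4). No test was made.

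**Figure D5:**
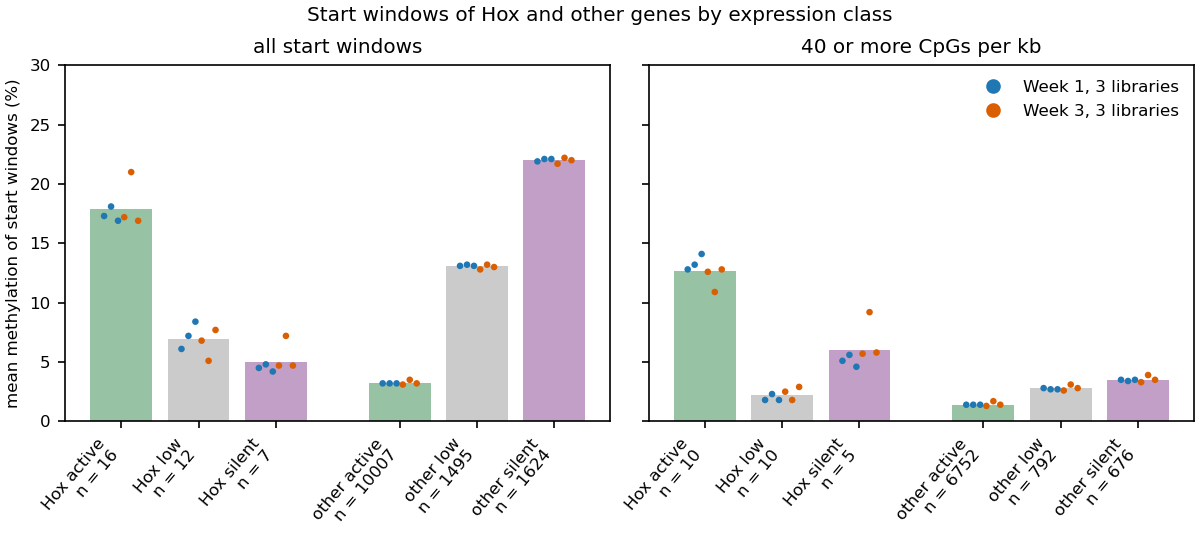
Mean methylation of start windows (y axis, percent) for active, low and silent Hox genes and other genes, over all windows (left) and those with 40 or more CpGs per kb (right); bars are means of the 6 libraries and points single libraries. Active Hox genes (17.9%) lie above silent ones (5.0%) and other active genes (3.2%) below other silent ones (22%).

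When every site was given to its nearest Hox gene, the 993 sites of active genes were 19.00% to 19.91% methylated and the 420 of silent genes 9.52% to 10.67%. Active minus silent was 9.28 ± 0.09 percentage points in Week 1 and 9.51 ± 1.02 in Week 3 (SD, n = 3 each; exact permutation p = 0.7 for the change with week, two-sided). The difference was largest from 20 to 40 CpGs per kb (35.5% against 15.3%). It was smaller under 20 (42.4% against 38.5%), from 40 to 60 (16.3% against 9.8%) and at 60 or more (9.1% against 2.1%). Within a cluster it took either sign. HoxA has no silent gene and HoxB no active one; in HoxC active minus silent ranged from -6.14 to 6.06 points over the libraries and in HoxD from -1.08 to 2.36. The difference over all clusters and the cluster cannot be told apart. It also depended on where active begins: with 5 CPM per kb as the limit, which leaves 5 genes, it was -0.52 points in Week 1 and 0.43 in Week 3. Active minus low was 8.10 to 11.51 points in HoxA and 12.99 to 16.87 in HoxC, but -7.52 to -3.66 in HoxD, where the low genes Hoxd4 and Hoxd3 carry the methylated sites.

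Between the weeks, the mean of each cluster differed by less than 1 percentage point. HoxA went from 19.29% ± 0.11 to 19.23% ± 0.58 (SD, n = 3 each), a difference of -0.05 points (exact permutation p = 1.0). HoxB went from 8.43% ± 0.27 to 8.34% ± 0.52 (-0.08 points, exact permutation p = 0.9). HoxC went from 17.80% ± 0.54 to 18.39% ± 0.28 (0.59 points, exact permutation p = 0.2), and HoxD from 13.36% ± 1.34 to 13.97% ± 0.55 (0.61 points, exact permutation p = 0.6). With 3 libraries against 3 the smallest two-sided p is 0.1, so no cluster could pass; adjusted over the 4 clusters the values were 0.8 for HoxC and 1.0 for the others. The rest of the genome fell by 0.31 points over the same time (exact permutation p = 0.1).

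Of the 2177 Hox sites, 0 passed a quasi-binomial test of methylated and unmethylated reads with p-values adjusted over all shared sites (0.00331% of all sites passed). At an unadjusted p under 0.05 there were 70, or 3.22%, against 3.33% of all sites. Of 174 Hox tiles, 0 passed (0.0126% of all tiles did), and 20 had an unadjusted p under 0.05 (11.49%, against 6.99% of all tiles). The limma test on the tile means also called 0, with 11 under 0.05 (6.32%, against 4.29%). Tiles whose weeks did not overlap numbered 8 higher and 10 lower (4.60% and 5.75%, against 3.89% and 6.44% of all tiles).

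The 3 tiles and 3 sites with the smallest p are given here, and 0 of them passed. In HoxD the tile chr2:74739001-74740000, inside an intron of Hoxd3, averaged 36.2% ± 9.7 in Week 1 and 56.6% ± 10.6 in Week 3 (SD, n = 3 each, 4 sites; adjusted p = 0.505 by the quasi-binomial test). Within it, the site at base 74739224 (reverse strand) had means of 38.5% ± 12.7 and 73.7% ± 10.4 (adjusted p = 0.781 by the quasi-binomial test). In HoxB the tile chr11:96269001-96270000, between genes near Hoxb9, averaged 12.5% ± 2.1 and 8.3% ± 2.9 (14 sites; adjusted p = 0.508). The third, chr11:96303001-96304000 at the start of Hoxb5 (16 sites), had 2.4%, 1.2% and 0.8% in Week 1 and 2.2%, 16.3% and 3.3% in Week 3, so that Week 3 replicate 2 alone lay apart (adjusted p = 0.548). The site with the smallest p lay in the intron of Hoxc13 (chr15, base 102922699, forward strand), with 26.5%, 26.7% and 22.2% in Week 1 and 38.9%, 87.5% and 60.9% in Week 3 on 23 to 75 reads (adjusted p = 0.74). A site in an exon of Hoxd11 (chr2, base 74683968) had 29.1%, 28.7% and 9.7% and then 11.8%, 0.0% and 0.0% (adjusted p = 0.929).

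The start windows of the Hox genes that changed in RNA were compared between the weeks as well. The Hoxd1 window was at 1.0% in both weeks (31 sites, 0.7% to 1.6% over the libraries). The Hoxc13 window was at 0.5% in Week 1 and 0.8% in Week 3 (51 sites), Hoxd8 at 0.9% and 1.6% (33 sites), Hoxc4 at 39.9% in both weeks (14 sites), Hoxc5 at 7.9% and 8.1% (20 sites) and Hoxc8 at 17.2% and 15.7% (10 sites). For each of these 6 windows the libraries of the weeks overlap. Over all 35 windows the difference ran from -13.6 points (Hoxb2) to 22.1 points (Hoxa3), both on at most 5 sites, and 27 were within 2 points. In 3 windows the weeks did not overlap, 2 higher and 1 lower in Week 3 (2.58% and 6.39% of the start windows of all genes did so), which gives the smallest p of the exact permutation test (0.1): Hoxc6 was higher by 6.5 points, Hoxb6 higher by 2.4 points and Hoxc11 lower in Week 3 (2.6% and 0.6%).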

How the data were processed

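The authors deposited raw RNA-seq read counts per RefSeq transcript, made with STAR and featureCounts per the submitters' processing notes. For each cytosine read by ERRBS they deposited the coverage as read counts and the methylated and unmethylated share in percent, made with Bismark per the same notes, which also name CASAVA 2.17. The settings of these tools are not given in the sources that were used here. The labels' protocol for the RNA libraries (poly A+ RNA) has no step that marks strand.

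Each gene was given its transcript with the most counts. Of 30048 transcripts, 394 (1.53% of counts) matched no gene name. These were not removed, and every one entered the gene list as a separate entry. Counts were scaled by TMM, filtered with filterByExpr and tested with edgeR 4.0.16 (quasi-likelihood, R 4.3.3), Week 3 against Week 1, with Benjamini-Hochberg adjustment at 0.05. Sites covered at least 10 times in all 6 libraries, and 1000-base tiles with at least 3 of them, were tested with a quasi-binomial model of methylated and unmethylated reads with overdispersion moderated across sites and not under 1. Both scripts were tested on simulated data. Coordinates are mm10, which the GRCm38 reference matches. Same-numbered RNA samples deviated together (correlations 0.272, 0.385 and 0.199), so the replicate block is given where it changes a call.

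Values in each library are given for active genes and for those that passed, and others by range. Sites and tiles are named where they passed, and otherwise the 3 with the smallest p, with the most methylated tile of each cluster and the 5 most methylated start windows. Members and lists (TALE cofactors, regulators, limb genes, markers) were chosen with earlier results of these data known. Alternatives covered scaling, filter, test (DESeq2 1.42.0, limma 3.58.1), transcript choice, block, coverage, tile size, class limits and left-out libraries. Single genes left unnamed, 1 of them a Hox gene also kept out of the figures, stay in the counts and means and are not reported here.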

Additional observations from a re-analysis of the deposited data

How the results depend on the processing

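Hoxd1 and Hoxc13 passed in every setting tried. With library totals as the only scaling, 1 Hox gene was higher, and with 1 library left out 3 to 6 were higher and 1 to 2 lower. The replicate block on RNA gave 6 higher and 2 lower Hox genes (3261 and 3045 of all genes, against 2815 and 2546), and of the Hox genes it changed the call of Hoxa10 only. Log2 changes near 0 took the other sign for Hoxa5 (-0.13) and Hoxc10 (-0.11) with library totals. With 1 library left out they ran from -0.14 to 0.18 for Hoxa5, -0.03 to 0.15 for Hoxc10, -0.27 to 0.21 for Hoxa7 and -0.26 to 0.11 for Hoxa3. The number of low genes was 7 with active from 0.5 CPM per kb, and with 5 CPM per kb there were 5 active and 25 low.

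Hox sites called numbered 0 in every setting. Same-numbered ERRBS samples deviated together far less than the RNA ones. Their correlations were 0.008, 0.011 and 0.004, against -0.011 to 0.002 for samples with different numbers. With the replicate block, 1 Hox tile passed, that at the start of Hoxb5, where Week 3 replicate 2 lay apart. Over all tiles the count was 9, against 175 with the block, 0 to 59 with 1 library left out, 0 with at least 10 sites, 3 at a coverage of 20, 0 with limma and 75 without the lowest-coverage library of each week. Over all sites it was 24, against 0 with the block, 6 to 58 with 1 library left out and 36 without the lowest-coverage libraries. The limma test and the removal of the lowest-coverage libraries were chosen after seeing the data, as were joining low and silent genes and ranking tiles and start windows without Week 3 replicate 2.

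Week 3 minus Week 1 took the other sign in HoxA at a coverage of 20 (0.72 points), in HoxB with pooled reads (0.48), and without the lowest-coverage libraries in HoxB (0.07) and HoxD (-0.1). With 1 library left out it ran from -0.39 to 0.13 points in HoxA, -0.35 to 0.17 in HoxB, 0.41 to 0.9 in HoxC and 0.21 to 1.39 in HoxD. Active minus silent in Week 1 was 9.07 points within 1 kb of starts, 8.22 with active from 0.5 and -0.52 from 5 CPM per kb, 8.43 at a coverage of 20, 8.92 without the margin and 8.48 with low and silent genes together. In Week 3 it was 7.6 within 1 kb, 0.43 with active from 5 CPM per kb and 8.38 with low and silent genes together. The cause of these differences was not tested. The median coverage of 18 to 66 reads limits single sites, and 3 libraries a week limit every test between weeks.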
